A study of Mus musculus with 12 samples.

Results

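The transporters that carry bile acids and other organic anions through the hepatocyte, and the nuclear receptor pair FXR and SHP that sets their output, were followed in mouse liver tumours with and without Miz1. The set holds 10 genes, taken by symbol from tables of 21751 and 24054 gene entries. It has the basolateral uptake carriers Slc10a1, Slco1a1, Slco1a4 and Slco1b2, the canalicular pumps Abcb11, Abcb4 and Abcc2, the basolateral exporter Abcc3, and the receptor genes Nr1h4 (FXR) and Nr0b2 (SHP). All 10 were measured in both tables and passed the filter on low values (a mean of at least 1) in both.

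The 12 RNA-seq libraries, 3 in each of 4 groups, came from liver tumours dissected from C57BL/6 mice. Every mouse had received diethylnitrosamine (DEN, 25 mg/kg, in postnatal week 2), a hepatic carcinogen, and then carbon tetrachloride (CCl4, 0.5 ml/kg) every week, and tumours were taken at 5 months of age. In the first pair of groups, Miz1fl/fl mice without Cre (floxed) were compared with Miz1fl/fl mice carrying Alb-Cre (Miz1 knockout). In the second pair, Miz1(POZ)fl/fl mice without Cre were compared with Miz1(POZ)fl/fl mice carrying Alb-Cre (Miz1(POZ) knockout), in which the POZ domain of Miz1 is the target. Miz1 is a zinc finger transcription factor encoded by Zbtb17. Cre driven by the albumin promoter acts in hepatocytes, so that the stromal, vascular and immune cells of a tumour keep the floxed allele. The labels give neither the exons removed, nor the sex of the mice, nor their number behind the 3 libraries of a group, and p-values therefore measure the spread between libraries. Because the first table holds reads divided by a size factor (here normalised reads) and the second holds FPKM, each knockout was tested only within its own table.

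Bile acids circulate between liver and intestine. Hepatocytes take them up from sinusoidal blood through the sodium-dependent carrier NTCP (Slc10a1) and the sodium-independent OATP carriers (Slco genes). The pump BSEP (Abcb11) secretes them into the canaliculus. When they accumulate they activate FXR, which induces Abcb11 and Nr0b2, and SHP in turn represses bile acid synthesis. MRP2 (Abcc2) exports conjugated bilirubin and glutathione conjugates into bile, MDR2 (Abcb4) moves phosphatidylcholine into it, and MRP3 (Abcc3) returns conjugates to the blood.

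Promoter windows of 4 members are shown because they carry the matches closest to known receptor or hepatocyte factor motifs, or belong to the member whose groups separated in both comparisons. Each window is 300 bases from RefSeq (GRCm38.p6), 250 before and 50 after the annotated start, printed 5′ to 3′ on the strand of the gene. The windows are Abcc2 at chr19:43782058-43782357 (+ strand), Abcb11 at chr2:69342567-69342866 (- strand), Slco1b2 at chr6:141629268-141629567 (+ strand) and Slco1a1 at chr6:141946913-141947212 (- strand). Capitals mark motif matches.
Abcc2: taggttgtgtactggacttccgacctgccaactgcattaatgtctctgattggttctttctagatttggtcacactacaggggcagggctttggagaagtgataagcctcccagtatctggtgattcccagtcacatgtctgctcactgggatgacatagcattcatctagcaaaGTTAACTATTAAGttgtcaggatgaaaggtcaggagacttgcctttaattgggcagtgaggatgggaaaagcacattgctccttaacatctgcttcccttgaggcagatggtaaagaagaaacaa
Abcb11: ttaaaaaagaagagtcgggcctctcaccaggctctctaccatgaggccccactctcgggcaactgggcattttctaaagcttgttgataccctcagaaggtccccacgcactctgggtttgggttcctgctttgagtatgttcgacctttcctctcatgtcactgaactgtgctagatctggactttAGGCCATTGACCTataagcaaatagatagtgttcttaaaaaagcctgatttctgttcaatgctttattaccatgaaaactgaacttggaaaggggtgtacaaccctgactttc
Slco1b2: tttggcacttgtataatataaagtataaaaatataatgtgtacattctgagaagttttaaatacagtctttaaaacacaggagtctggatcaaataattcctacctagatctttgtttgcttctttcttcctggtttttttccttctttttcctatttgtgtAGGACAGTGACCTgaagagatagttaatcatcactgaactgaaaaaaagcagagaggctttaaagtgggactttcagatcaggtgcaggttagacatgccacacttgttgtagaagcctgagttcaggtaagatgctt
Slco1a1: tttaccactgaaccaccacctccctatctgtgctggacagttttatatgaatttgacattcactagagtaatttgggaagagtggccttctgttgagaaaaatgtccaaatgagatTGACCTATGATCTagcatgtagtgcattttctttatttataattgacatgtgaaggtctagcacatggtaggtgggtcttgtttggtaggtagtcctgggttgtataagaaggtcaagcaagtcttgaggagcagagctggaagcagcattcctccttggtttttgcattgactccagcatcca

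The capitals in Abcb11 and Slco1b2 match the inverted repeat that FXR binds with RXR (IR-1, AGGTCA and its reverse complement 1 base apart) with 1 mismatch. The match begins 63 bases before the start of Abcb11 and 88 bases before that of Slco1b2. Such a match was present in 27 of 32544 distinct promoter windows (0.083%). The capitals in Slco1a1 match a direct repeat bound by HNF4 (DR-1, 2 copies of AGGTCA 1 base apart) with 1 mismatch (0.559% of windows). Those in Abcc2 match the HNF1 palindrome (GTTAAT and its reverse complement 1 base apart) with 2 mismatches (1.37% of windows), as did a stretch of the Nr1h4 window. Nr0b2 held an E-box, CACGTG (7.17% of windows). Among the 9 members with a promoter entry, 6 held a match to any of the 6 motifs searched on both strands. The share of all windows with a match to any of the 6 was not computed. No window of a member held the LRH-1 motif TCAAGGTCA (1 mismatch allowed, 7.43% of all windows) or the D-box TTATGTAA (0.931%). A match describes letters in this window and not binding.

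In the Miz1 table, the replicate 1 library of each group stood apart before any comparison. Cyp2e1, a cytochrome P450 of pericentral hepatocytes, had 6372 (floxed) and 7059 (knockout) normalised reads in these libraries, while the other 4 had 57731 to 131465. The summed level of 13 pericentral markers was 31938 and 17638 in the replicate 1 libraries and 84292 to 174900 in the others. Cyp2e1 made up most of that sum in the others (131465 of 174900 in floxed replicate 2). Of the 13, 10 were lowest in replicate 1 of both groups. Cyp2a5 of the same list was instead highest in floxed replicate 1 (18359 against 1215 to 7996 in the rest). The summed level of 12 periportal markers was low there too (141710 and 127090 against 251240 to 440640). That of 20 general hepatocyte markers was 7789700 and 5389500 in the replicate 1 libraries, against 3159000 to 5467600 in the others. Alb alone gave 4518470 of the first of these. The summed levels of 11 cholangiocyte and progenitor markers (10026 and 13213 against 2971 to 3817), 15 macrophage markers (15216 and 23027 against 5451 to 8876) and 15 proliferation genes (3274 and 4457 against 741 to 1548) were highest in the replicate 1 libraries. Deviations from the group mean correlated across genes at 0.489 for the replicate 1 pair, and at 0.339 and 0.118 for pairs 2 and 3. Floxed replicate 2 also ran with knockout replicate 3 (0.282). The titles give only replicate numbers, so the difference within each numbered pair is a description beside the group difference. In the Miz1(POZ) table floxed replicate 3 stood apart, with 822 FPKM of Cyp2e1, while the other 5 libraries had 1828 to 4902. Its summed periportal level was the lowest (2282.4 against 4469.2 to 5439.3 FPKM). Its summed level of general hepatocyte markers was the highest (150140 against 77944 to 115820 FPKM). Abundant genes weigh most in that sum, with Alb alone at 62597 FPKM in this library. Members of the list differed, as Tat (160 FPKM) and Asgr2 (73.9 FPKM) were at their lowest in floxed replicate 3. Among the 10 genes, 7 were lowest in replicate 1 of both Miz1 groups (26.5% of all entries), and 9 were lowest among floxed Miz1(POZ) libraries in replicate 3 (49.5% of genes). In floxed Miz1 libraries, 1 of the 10 was lowest in replicate 3 (21% of entries). In bulk tissue, fewer cells of a type and less RNA per cell cannot be told apart.

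Zbtb17 itself ranged from 302 to 323 normalised reads without Cre and from 261 to 271 in the Miz1 knockouts, a mean lower by 14.1% (limma adjusted p = 0.9998). In the Miz1(POZ) table it ranged from 1.82 to 2.46 FPKM without Cre and from 1.95 to 2.60 with it, and the groups overlapped. As the removed exons are not given, this whole-gene level is a weak check of the labels. The exons of Zbtb17 overlap those of Spen on the other strand, and the counting is not stated to use strand.

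Per length, NTCP led the set in floxed tumours of both tables. Slc10a1 was at 252 ± 56.7 FPKM (SD, n = 3), followed by Slco1b2 at 219 ± 120.3 and Abcc2 at 194 ± 34.9 FPKM. Abcb4 (102 ± 33.9), Abcb11 (79.5 ± 37.8), Nr1h4 (76.7 ± 20.4) and Abcc3 (66.5 ± 7.24 FPKM) formed a middle group. Slco1a1 (35.5 ± 27.4), Slco1a4 (17.0 ± 10.2) and Nr0b2 (13.6 ± 5.04 FPKM) were lowest. Within each of these 3 groups the ranges of neighbours in the order overlapped, while Abcc2 lay above Abcb4 and Abcc3 above Slco1a1 in each floxed library. In the Miz1 table, divided by exon length (GENCODE M21), Slc10a1 was again first, at 4325 ± 1420 normalised reads per kb, with Abcc2 at 3960 ± 490.2 and Slco1b2 at 3190 ± 2358. Nr0b2, at 726 ± 143 per kb, stood above Slco1a1 (680.0 ± 663) and Slco1a4 (326 ± 272) there, and lowest in the FPKM table. Abcb11 was at 2062 ± 341 and Nr1h4 at 1567 ± 708 per kb.

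**Figure D1:**
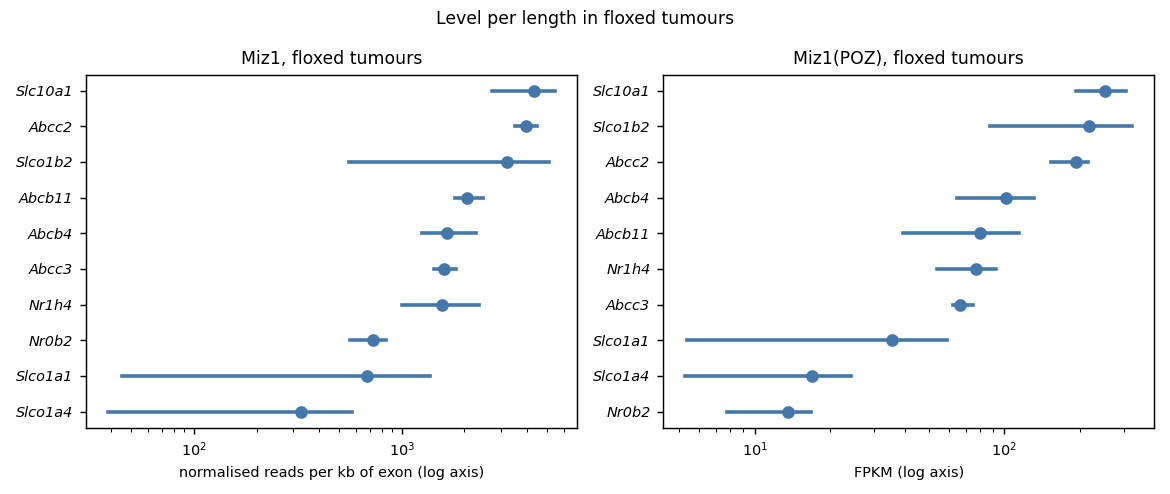
Level per length of the 10 genes in floxed tumours, as normalised reads per kb of exon (Miz1, left) and FPKM (Miz1(POZ), right), on log axes. Points are means of 3 libraries and lines run from the lowest to the highest library. Slc10a1 is first in both, and Slco1a1 and Slco1a4 have the longest lines on the log axis.

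The first comparison asked how the bile acid transport genes stood when Miz1 was deleted in hepatocytes. Of the 10 genes, 0 passed an adjusted p of 0.05 with limma (Benjamini-Hochberg over 21751 gene entries; percent called over all entries 0%; unadjusted p under 0.05 for 0 of 10 genes and 1.67% of entries, 0.887% downward). By edgeR and DESeq2 on the reads of 5 libraries 0 of 10 passed as well, also at an unadjusted p under 0.05. The log2 fold change was below 0 for 8 of 10 genes, with a median of -0.21 against 0.01 over all entries. For Abcc2 the 3 knockout libraries lay below the 3 floxed libraries, which held for 3.05% of all entries, and 0 genes had the groups separated the other way (2.57% of entries, and 5.62% in either direction). For the other 9 genes the groups overlapped.

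Abcc2, the canalicular exporter of conjugates (chr19:43782192-43840740, + strand), had 38113, 29765 and 33491 normalised reads in floxed libraries 1, 2 and 3, and 27972, 20690.3 and 26433 in the knockouts. The highest knockout library was thus below the lowest floxed one. The log2 fold change was -0.44 ± 0.21 (moderated SE; 95% interval -0.94 to 0.06; limma adjusted p = 0.9998). An exact two-sided permutation test gave p = 0.1, the smallest that 3 against 3 allows. Within the numbered pairs the log2 differences were -0.45, -0.52 and -0.34. Under quantile normalisation the groups overlapped (log2 fold change -0.33). Unlike the uptake carriers, Abcc2 was highest in replicate 1 in both groups.

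The canalicular bile acid pump Abcb11 (chr2:69238282-69342616, - strand), whose promoter holds the FXR motif match, had 9249, 12595 and 9994 normalised reads without Cre and 8389.9, 13058 and 10469.7 with it. The groups overlapped, and it spread least of the 10 genes (1.56-fold over 6 libraries), with a log2 fold change of -0.01 ± 0.22 (SE; 95% interval -0.54 to 0.52) that turned positive under column-sum scaling and quantile normalisation. Exons of Abcb11 overlap the antisense gene Gm13613, which was at 63.5 to 263 normalised reads, and a pseudogene, Gm13614, at 19.2 to 72.9. Abcb4, the phospholipid floppase gene (chr5:8893717-8959231, + strand), had 11679, 21438 and 13065 in the floxed libraries, against 9855, 14583 and 16659 in the knockouts. Floxed replicate 2 was the highest library and the groups overlapped. It had a log2 fold change of -0.15 ± 0.31 and pair differences of either sign (-0.24, -0.56 and 0.35).

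The OATP uptake carriers differed more between replicate numbers than between genotypes. Over the 6 libraries, 8 of the 10 genes ranged at least 2-fold (53.7% of entries) and the 3 OATP genes at least 5-fold (17.8%). Slco1b2, the main OATP1B of mouse liver (chr6:141629518-141686646, + strand), had 2740.4, 25155 and 19273 normalised reads without Cre, against 2597, 17375 and 18147 with it. The second lowest library exceeded the lowest 7.03-fold in the floxed and 6.69-fold in the knockout group, and the lowest was replicate 1 in both. The group difference was -0.23 ± 1.09 (log2, SE; 95% interval -2.85 to 2.39), and the differences within pairs 1, 2 and 3 were -0.08, -0.53 and -0.09. Without floxed replicate 1 the estimate was -1.24, and without knockout replicate 1 it was 0.69.

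Slco1a1, an OATP that is male-predominant in mouse liver (chr6:141907282-141946962, - strand), had 239, 7219 and 3306 normalised reads without Cre, against 411, 4665 and 4141 with it. Slco1a1 and Slco1a4 are close relatives, so reads could be split between them. Its range within the floxed group was 30.3-fold, the widest of the set, and replicate 1 was lowest in both groups. The log2 fold change of 0.16 ± 1.48 became 1.30 without knockout replicate 1, and turned to -1.29 without floxed replicate 1 and to -0.15 without both replicate 1 libraries. Sex is not given in the labels. The summed level of 17 male-biased liver genes was 89683 and 61348 in the replicate 1 libraries and 135960.0 to 286670.0 in the others. That of 13 female-biased liver genes was 16395 and 11819 in the replicate 1 libraries and 3557.5 to 14669 in the others, so these ranges overlapped. The part of sex in the result was not tested.

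Slco1a4, another OATP of this cluster (chr6:141805440-141856199, - strand), had 248, 3713 and 2305 normalised reads in floxed libraries and 189, 1242 and 1491 in the knockouts. The knockout library was lower within each numbered pair, by log2 differences of -0.39, -1.58 and -0.63, while the groups overlapped. The log2 fold change of -0.87 ± 1.21 (limma adjusted p = 0.9998) became -1.10 without both replicate 1 libraries, where the groups separated (as for 38.5% of entries with 2 libraries a group), -2.05 without the floxed one alone and 0.08 without the knockout one alone. Slc10a1, the NTCP gene (chr12:80953183-80968705, - strand), had 6001, 11984 and 10549 normalised reads without Cre, and 2650.1, 9275 and 8707 with it. It too was lower in the knockout library of each pair (-1.18, -0.37 and -0.28), with a log2 fold change of -0.61 ± 0.54 (95% interval -1.90 to 0.68). Without knockout replicate 1 the estimate was -0.02, and without knockout replicate 2 it was -0.92. Of the 10 members, 5 were lower in the knockout library of all 3 pairs (Slc10a1, Slco1a4, Slco1b2, Abcc2 and Nr1h4), against 14.3% of all entries.

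The FXR gene Nr1h4 (chr10:89454234-89533585, - strand) had 2319, 5442 and 3064 normalised reads in its floxed libraries and 1960.0, 3541 and 2930.2 in the knockouts. Replicate 1 was again lowest in both groups, and floxed replicate 2 was highest of the 6. The log2 fold change was -0.31 ± 0.36 (SE; 95% interval -1.19 to 0.57) and turned to 0.03 without floxed replicate 2. Nr0b2, the FXR-induced corepressor SHP (chr4:133553376-133556536, + strand), had 875, 950.0 and 640.3 without Cre, and 510.4, 662 and 1055 with it. The pairs differed in sign (-0.78, -0.52 and 0.72), and the highest and lowest of the 6 libraries were both knockouts. Abcc3, the basolateral exporter (chr11:94343295-94392997, - strand), had 10392, 8161 and 8633 in the floxed libraries, against 9491, 5957 and 13142 in the knockouts. The floxed values lay inside the span of the knockout values, a log2 fold change of 0.01 ± 0.30 with pair differences of -0.13, -0.45 and 0.61.

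**Figure D2:**
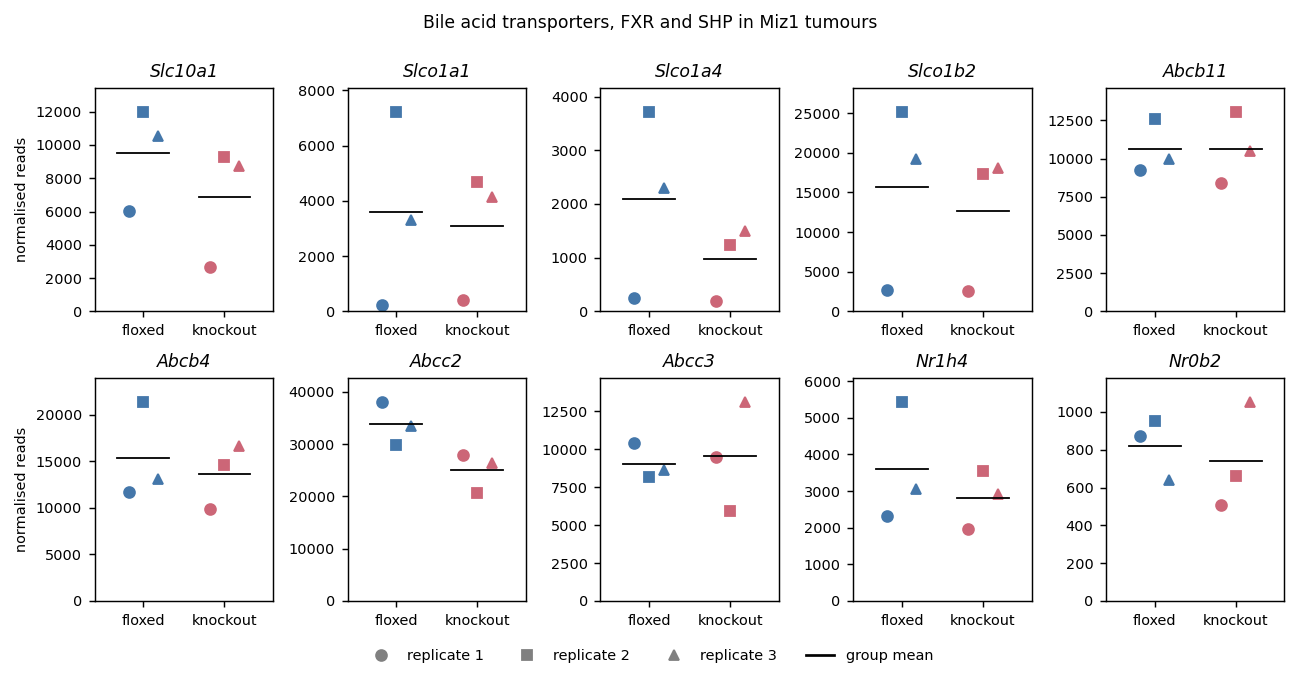
Normalised reads of the 10 genes in each Miz1 library, with floxed libraries on the left of each panel and knockout libraries on the right. Marker shapes give the replicate number and lines the mean of 3 libraries, and each axis starts at 0. The uptake carriers are lowest in replicate 1 of both groups, and for Abcc2 the highest knockout library (27972) is below the lowest floxed one (29765).

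The Miz1(POZ) allele was compared in its own table. With limma over 11201 genes, 0 of 10 members passed an adjusted p of 0.05 (percent called over all genes 0%), and 1 of 10, Abcc2, had an unadjusted p under 0.05 (8.71% of genes, 3.92% downward). The log2 fold change was above 0 for 6 genes and below 0 for 4, with a median of 0.14 against 0.03 over all genes. Abcc2 was again the gene whose knockout libraries lay below the floxed ones (6.32% of genes), and 0 members were separated the other way (8.68% of genes, and 15% in either direction). Groups separated downward in both tables for 0.314% of 10842 genes tested in both.

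Abcc2 had 213, 215 and 154 FPKM in floxed libraries 1, 2 and 3, and 116, 149 and 145 in the Miz1(POZ) knockouts. The gap between the groups was small, since floxed replicate 3 lay just above knockout replicate 2. The means were 194 ± 34.9 and 137 ± 17.9 FPKM (SD, n = 3), a log2 fold change of -0.49 ± 0.20 (moderated SE; 95% interval -0.97 to -0.02). That gave an unadjusted p = 0.0427 and an adjusted p = 0.5546 with limma, and p = 0.1 by the exact permutation test, the smallest possible. With 1 library left out, the interval included 0 in 5 of 6 refits (unadjusted limma p from 0.0591 to 0.138) and excluded it without floxed replicate 3 (0.00895). The knockout mean was lower by 29.5% here and by 25.9% in the Miz1 comparison, and a difference between the alleles was not tested.

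The OATP carriers were again the members with the widest ranges, this time with floxed replicate 3 lowest in the floxed group. Over the 6 libraries, 7 of the 10 genes ranged at least 2-fold (25.7% of genes). Slco1b2 had 324, 245 and 87.8 FPKM without Cre, and 217, 381 and 158 with it. The highest library was a knockout, the lowest was floxed, and the groups overlapped (log2 fold change 0.30 ± 0.53, SE, and -0.26 without floxed replicate 3). Slco1a1 had 58.9, 42.2 and 5.38 FPKM in the floxed libraries, against 17.9, 83.7 and 14.7 in the knockouts. It ranged 15.6-fold over the 6 libraries, where 4.48% of genes ranged at least 5-fold. Its log2 fold change of 0.21 ± 0.97 turned to -0.79 without floxed replicate 3. For Slco1a4 the floxed values were 24.3, 21.3 and 5.29 FPKM and the knockout values 15.5, 21.03 and 38.8, with knockout replicate 3 the highest library (log2 fold change 0.67 ± 0.57, 0.035 without floxed replicate 3 and 0.32 without knockout replicate 3). Slc10a1 spread least of the 4 uptake carriers, with floxed values of 306, 257 and 193 FPKM and knockout values of 257, 382 and 183 (0.08 ± 0.31, and -0.05 under quantile normalisation).

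Among the export and receptor genes, floxed replicate 3 was the low library for Abcb11, Abcb4 and Nr1h4 as well. Abcb11 had floxed values of 84.6, 115 and 39.4 FPKM and knockout values of 97.9, 105 and 71.4 (log2 fold change 0.31 ± 0.38, and -0.12 without floxed replicate 3). For Abcb4 they were 131, 109 and 64.9 FPKM without Cre, and with it 90.5, 98.1 and 99.2, close together (SD 4.77). Nr1h4 had 92.4, 84.0 and 53.6 FPKM in the floxed libraries, against 68.0, 81.7 and 56.5 in the knockouts (-0.13 ± 0.24). For these 3 genes the groups overlapped. Nr0b2 had floxed values of 16.8, 7.75 and 16.2 FPKM and knockout values of 10.2, 18.7 and 22.6 (0.32 ± 0.37). Abcc3 had 62.3, 74.8 and 62.3 FPKM without Cre, and 45.4, 57.5 and 79.0 with it (-0.16 ± 0.22). Both overlapped, with the highest library a knockout. Knockout replicate 1 had the highest summed level of 20 acute phase genes (55850.0 against 6494.8 to 13653 FPKM in the others). In that library Abcc2, Abcb4, Abcc3, Nr0b2 and Slco1a4 had their lowest knockout value. The other 5 members had theirs in knockout replicate 3, where the acute phase sum was lowest (6494.8 FPKM), though near floxed replicates 1 and 2 (6627.3 and 6935.4 FPKM). How often all genes were lowest in either knockout library was not counted. The part of the acute phase in these values was not tested.

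**Figure D3:**
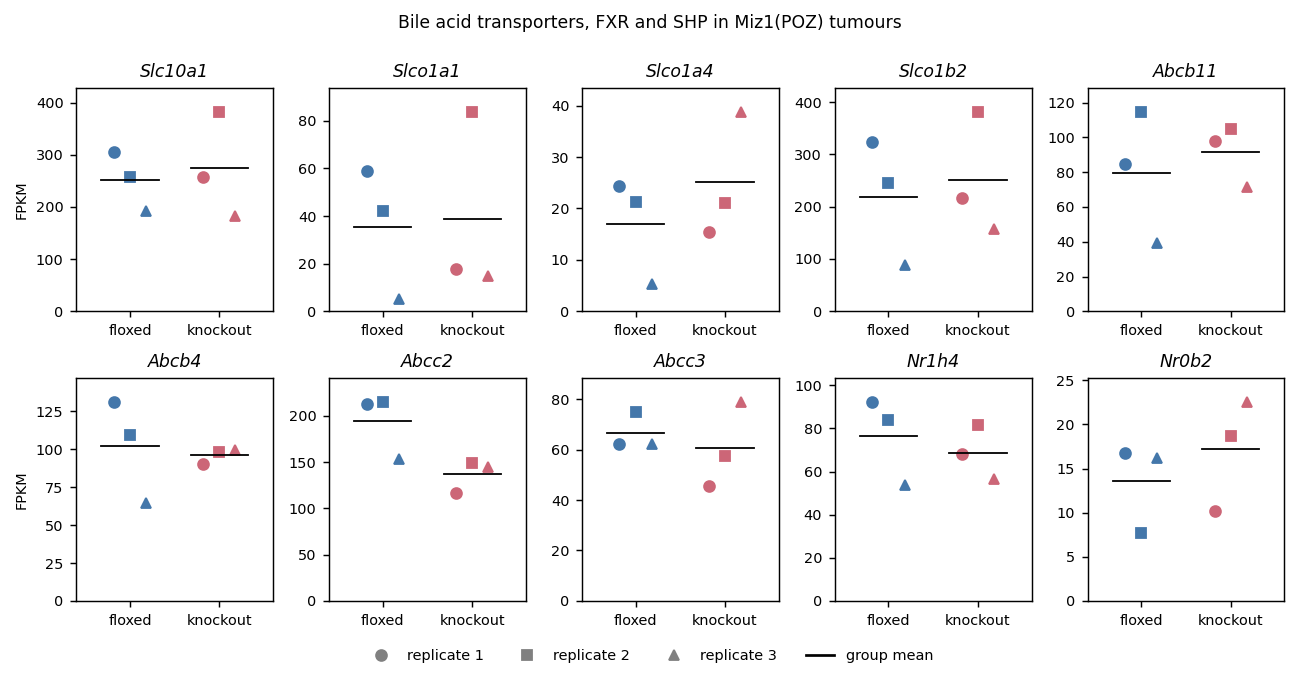
FPKM of the 10 genes in each Miz1(POZ) library, with floxed libraries on the left of each panel and knockout libraries on the right. Marker shapes give the replicate number and lines the mean of 3 libraries, and each axis starts at 0. Floxed replicate 3 is low for the uptake carriers and Abcb11, and the knockout values of Abcc2 (116 to 149) lie below the floxed ones (154 to 215).

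**Figure D4:**
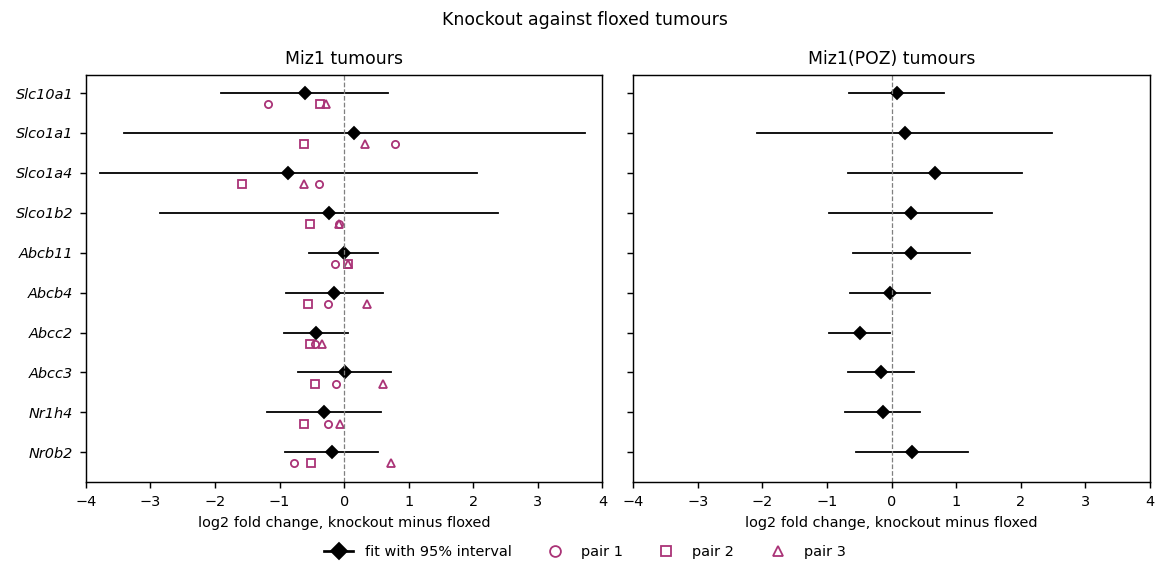
Log2 fold changes of the 10 genes, knockout minus floxed, in Miz1 (left) and Miz1(POZ) tumours (right). Diamonds and lines are limma estimates with 95% intervals, and open symbols on the left are the differences within numbered pairs. The intervals of Slco1a1 and Slco1a4 are the widest in both panels, and that of Abcc2 runs from -0.94 to 0.06 on the left and from -0.97 to -0.02 on the right.

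Correlations across libraries are described here with no test. On log2(value + 1) over the 6 Miz1 libraries, where the replicate 1 libraries form a cluster of their own, Slco1b2 ran with Cyp2e1 at a Pearson r of 0.993, with Slco1a1 at 0.984 and with Slco1a4 at 0.978. Over the 6 Miz1(POZ) libraries the corresponding values were 0.893, 0.975 and 0.598. These 3 OATP genes lie on chromosome 6 between 141629518 and 141946962 (GRCm38). Abcb11 ran with Nr1h4 at 0.886 and 0.753. Other members ran with Nr1h4 as well: Abcb4 (0.928 and 0.812), Slco1a1 (0.84 and 0.919), Slco1b2 (0.836 and 0.896), Slc10a1 (0.834 and 0.837) and Slco1a4 (0.883 and 0.391). For Abcc3 the values were negative (-0.419 and -0.094). Abcc2 ran with Cyp2e1 at -0.323 and -0.0405. Abcc2 ran with Nr1h4 at -0.242 and 0.611, and Nr0b2 ran with Nr1h4, its known activator, at 0.471 and -0.330, so the sign differed between the tables for both.

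**Figure D5:**
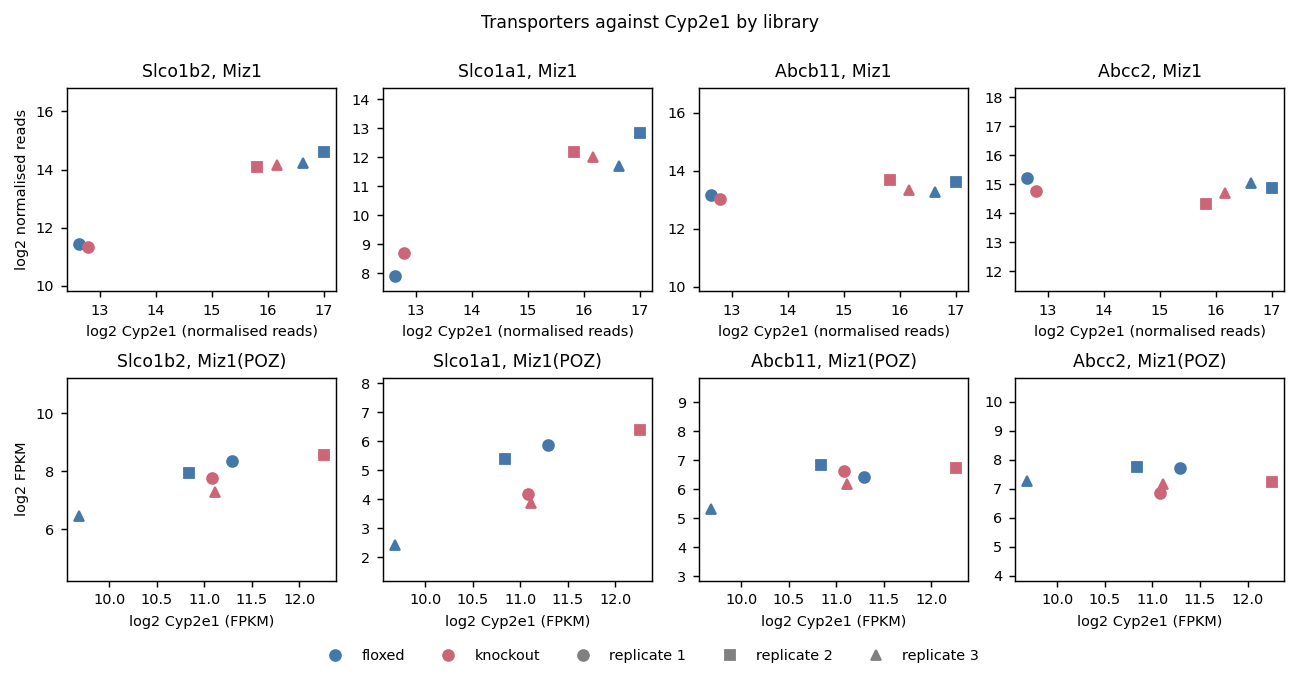
Log2 level of 4 transporters against log2 Cyp2e1 in each library, as normalised reads for Miz1 (top) and FPKM for Miz1(POZ) (bottom). Colours give the group and shapes the replicate number, and every panel spans the same number of log2 units vertically. Slco1b2 and Slco1a1 follow Cyp2e1, with the Miz1 replicate 1 libraries at the lower left, while Abcc2 does not.

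Across 10841 annotated genes tested in both tables, those most alike to each member were ranked by the lower of its 2 within-table correlations over 6 libraries. For Slco1b2 they were Suox (lower r 0.996), Scnn1a (0.986) and Ces3a (0.985), and for Slco1a1 they were Cmbl (0.981), Slco1b2 (0.975) and Prr14 (0.971). For Abcc2 the first were Cry2 (0.907), a core repressor of the circadian clock, and Tef (0.895), a PAR-bZIP factor of its output, followed by Rabl6 (0.872). Tef had 4711, 2071 and 5193 normalised reads without Cre, against 2814, 1242 and 2815 in Miz1 knockouts (limma adjusted p = 0.9998). In the other table its floxed values were 58.7, 51.8 and 36.8 FPKM and its knockout values 23.3, 29.7 and 26.4 (limma adjusted p = 0.366). Its knockout libraries lay below the floxed ones in the Miz1(POZ) table (as for 6.32% of genes) and overlapped them in the Miz1 table. Because Tef was picked for its likeness to Abcc2, which separated downward too, this separation is not independent of the choice. The first gene was Adtrp for Slc10a1 (0.957), Noa1 for Slco1a4 (0.967), Mfhas1 for Abcb11 (0.95), Csrnp2 for Abcb4 (0.978), Eif4b for Abcc3 (0.864), Erc1 for Nr1h4 (0.960) and Myh14 for Nr0b2 (0.838). With 6 libraries a table, many genes reach such values.

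Other genes of bile and organic anion transport were described by their list, with 0 past the test in either comparison. Of 25 listed, 20 were tested in the Miz1 table (median log2 fold change -0.14) and 17 in the Miz1(POZ) table (0.01). Abcg2, a drug and urate efflux pump, had 1732 ± 241.5 normalised reads without Cre and 1291 ± 425 in Miz1 knockouts (SD, n = 3). Abcg8, a canalicular sterol transporter subunit, had a log2 fold change of -0.41 ± 0.33 (SE). In the Miz1(POZ) table, Slc9a3r1, a scaffold of canalicular transporters, was at 86.3 ± 5.57 and 67.0 ± 3.73 FPKM with groups that did not overlap. Abcb1a, a P-glycoprotein gene, was at 6.61 ± 2.38 and 3.18 ± 2.30 (SD, n = 3; limma adjusted p = 0.509 and 0.568). Both were named for the smallest p of the list. Its groups separated downward for 2 and upward for 0 of 17 genes (6.32% and 8.68% of all genes). The OATP gene Slco2b1 showed the same low replicate 1 values as its relatives in the Miz1 table, at 537 and 556 normalised reads against 2075 to 3947.

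Partners and regulators of FXR were tested for 18 of 20 listed genes in the Miz1 table (median log2 fold change -0.08) and 17 in the Miz1(POZ) table (0.01), and 0 passed in either. Fgfr4, the hepatic receptor of the ileal hormone that signals bile acid return, had a log2 fold change of -0.26 ± 0.14 (SE) and Nr1i3, the xenobiotic receptor CAR, one of -0.91 ± 0.49 in the Miz1 comparison. In the Miz1(POZ) comparison, Osgin1, a gene induced by FXR and NRF2, was at 154.5 ± 22.5 and 67.6 ± 29.9 FPKM, and Nr1i2, the xenobiotic receptor PXR, was at 31.6 ± 6.26 and 21.6 ± 2.62 (SD, n = 3; limma adjusted p = 0.372 and 0.467). The groups did not overlap for either. In this list they separated upward for 1 and downward for 2 of 17 genes (8.68% and 6.32% of all genes). Osgin1 and Nr1i2 were named for the smallest p of the list, a choice that favours separated groups. In the Miz1 comparison the groups overlapped for both, with log2 fold changes of 1.02 ± 0.70 (Osgin1) and -0.34 ± 0.25 (Nr1i2, SE). Rxra, the obligate partner of FXR, had log2 fold changes of -0.16 and 0.02.

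Bile acid synthesis and conjugation genes were tested for 15 of 17 listed genes in each table, with medians of -0.25 (Miz1) and 0.33 (Miz1(POZ)) and 0 past the test. In the Miz1 table Cyp39a1 had a log2 fold change of 0.39 ± 0.20 and Cyp46a1 one of -1.04 ± 0.95 (SE). In the Miz1(POZ) table, Cyp2c70, which makes the muricholic acids of mice, was at 125 ± 35.9 FPKM without Cre and 331 ± 104.7 with it, with no overlap (limma adjusted p = 0.36). Hsd3b7 was at 64.4 ± 24.9 and 130.1 ± 55.7 (0.546). Both were named for the smallest p of the list. Its groups separated upward for 2 and downward for 0 of 15 genes (8.68% and 6.32% of all genes). Cyp7a1, the rate-limiting enzyme that SHP represses, was at 79.2 and 200.1 normalised reads in the Miz1 replicate 1 libraries and 715 to 4255 in the other 4. Cyp8b1, the sterol 12-hydroxylase, was at 161 and 92.2 there and 2962 to 14624 in the other 4.

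Marker lists that could move with the transporters were described the same way, and 0 of their genes passed in either comparison. Hepatocyte markers had medians of 0.08 (Miz1, 20 tested) and 0.10 (Miz1(POZ), 20 tested). Pericentral markers had medians of -0.31 and 0.61 (13 tested in each) and periportal markers of -0.33 and 0.32 (12 in each). For macrophage markers the medians were 0.29 (15 tested) and 0.08 (11 tested), for stellate and matrix markers 0.38 (14) and -0.06 (12), for endothelial markers -0.07 (12) and -0.15 (12), and for cholangiocyte and progenitor markers 0.20 (11) and 0.04 (5). Lymphocyte markers had medians of 0.14 (12) and -0.14 (2), acute phase genes 0.22 (20) and 0.74 (20), and proliferation genes 0.61 (15) and 0.03 (4). Male-biased liver genes had medians of -0.51 (17) and 0.26 (16), and female-biased liver genes 0.60 (13) and -0.48 (10).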

How the data were processed

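Libraries were prepared from 1 ug of RNA with the Illumina TruSeq kit, per the labels' protocols. The submitters' processing notes name mm10 and, without a role for any, DESeq2 1.16.1, edgeR 3.18.1, RSEM 1.1.17, Bowtie2 2.2.6, Trimmomatic 0.36 and bcl2fastq 2.19.0. In the deposited Miz1 table the signal of a gene is its read count over a size factor. Whole reads were recovered for 5 columns, where 100% of values above 0 fell on whole reads (within 0.01 reads). Floxed replicate 3 reached 100% as well, but whole reads were not claimed for it, and edgeR and DESeq2 were run without it. The 5 columns hold 30151700 to 76123000 reads in genes. Entries that name no gene make up 38.04% to 50.82% of a column and were left out. The deposited Miz1(POZ) values were taken as the authors' FPKM, since they scale with exon length against the Miz1 table (r = 0.748 across 10552 genes, not independent replicates). No source used here names that unit, and the depth is unknown.

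Each table was tested on its own with limma 3.58.1 in R 4.3.3 (empirical Bayes, mean-variance trend), on log2(value + 1) for genes with a mean of at least 1. P-values were adjusted over all genes (Benjamini-Hochberg, threshold 0.05). This scale understates changes of low genes. As neither table holds counts, the planned edgeR test was run only on recovered reads (edgeR 4.0.16, and DESeq2 1.42.0). Permutation tests were exact and two-sided. By the titles' numbers, same-numbered Miz1 libraries had correlated deviations across genes (0.489, 0.339 and 0.118). Floxed replicate 2 and knockout replicate 3 of that table did so too (0.282). Same-numbered Miz1(POZ) libraries did not throughout (-0.093, 0.230 and 0.175). Members and lists were chosen with earlier results of these data known. Named genes are the members, Zbtb17, Cyp2e1, the 2 genes of smallest p per pathway list and the genes most alike to a member. Rxra, Slco2b1, Cyp7a1, Cyp8b1, Spen, Gm13613, Gm13614, Alb, Cyp2a5, Tat and Asgr2 were named after their values were seen. Coordinates (1-based) follow GENCODE M21, GRCm38. The limma step was tested on simulated data. Figures used matplotlib 3.10.9.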

Additional observations from a re-analysis of the deposited data

How the results depend on the processing

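None of the 10 genes passed the threshold in 170 refits over 17 settings (Miz1) or 140 over 14 (Miz1(POZ)), and Abcc2 kept its direction in all of them. DESeq2 on 5 Miz1 libraries called 5 genes, none a member, where edgeR and limma called 0 (unadjusted p under 0.05 for 286, 195 and 364). Miz1 members without group overlap numbered 0 under quantile normalisation, 1 to 4 leaving out 1 library (10.6% to 27.9% of all entries), and 4 (Slc10a1, Slco1a4, Slco1b2 and Abcc2) without floxed replicate 1 (27.9%) or both replicate 1 libraries (38.5%). For Miz1(POZ) they numbered 1 to 3 leaving out 1 library (20.5% to 30.8% of genes) and 2 without both replicate 1 libraries (35.1%), and genes called ranged from 0 to 4 (1, 2 and 4 without floxed replicate 1, 2 and 3).

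Some log2 fold changes turned sign, and the cause was not tested. In Miz1, Abcb11 was 0.04 (column-sum scaling), 0.083 (quantile) and 0.06 (without both replicate 1 libraries), Slco1a1 -0.28 (edgeR), -0.28 (DESeq2) and -0.15 (without both), and Nr0b2 0.10 (without both). In Miz1(POZ), Slc10a1 was -0.048 (quantile), and Abcb4 0.22 and Nr1h4 0.02 (without both). Over fits leaving out 1 library or both replicate 1 libraries, Miz1 values ran from -0.17 to 0.15 (Abcb11), -0.32 to 0.12 (Abcb4), -0.53 to -0.31 (Abcc2), -0.26 to 0.31 (Abcc3), -0.48 to 0.10 (Nr0b2), -0.58 to 0.034 (Nr1h4), -0.92 to -0.02 (Slc10a1), -1.29 to 1.30 (Slco1a1), -2.05 to 0.081 (Slco1a4), -1.24 to 0.69 (Slco1b2) and -0.46 to 0.057 (median of the 10). Miz1(POZ) values ran from -0.12 to 0.63 (Abcb11), -0.32 to 0.22 (Abcb4), -0.65 to -0.31 (Abcc2), -0.37 to 0.025 (Abcc3), -0.012 to 0.81 (Nr0b2), -0.37 to 0.017 (Nr1h4), -0.19 to 0.34 (Slc10a1), -0.79 to 1.14 (Slco1a1), 0.035 to 1.32 (Slco1a4), -0.26 to 0.74 (Slco1b2) and -0.23 to 0.33 (median of the 10).

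With the replicate block, 0 genes passed in either table and no call changed (smallest limma adjusted p 0.9079 for Miz1 and 0.1852 for Miz1(POZ)). With this pairing 3 of 10 members had an unadjusted limma p under 0.05 in Miz1 (Slc10a1 0.0375, Slco1a4 0.0199 and Abcc2 0.0382), as did 5.29% of all entries, against 1.67% without it. In Miz1(POZ), the unadjusted limma p of Abcc2 went from 0.0427 to 0.0601 and 0 members were under 0.05 (9.61% of genes). In both tables the block rests on the replicate numbers in the titles, and the labels state no pairing. The wide Miz1 intervals of the OATP genes belong to the fit without the block. With it the 95% intervals were -0.63 to 0.16 (Slco1b2), -0.58 to 0.89 (Slco1a1) and -1.52 to -0.21 (Slco1a4).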
